A study of Saccharomyces cerevisiae with 26 samples.

Results

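The late phase of the industrial retentostats comprised sampling points 3 and 4 of duplicate cultures of *Saccharomyces cerevisiae* CEN.PK113-7D at pH 3 with 50% CO2 in the inflowing gas, and was set against sampling point 2 of the same cultures. The members were chosen by label: 4 late libraries (points 3 and 4 of cultures S3 and S4) and 2 point 2 libraries, 6 of the 26 libraries of the series. Genes were tested if their mean was at least 10 FPKM (fragments scaled to transcript length and library size) over these 6 libraries, which 5150 of the 6600 genes in the files were. CEN.PK113-7D is a haploid laboratory strain of mating type a that makes no added product. All libraries used here came from this strain, growing on glucose in aerobic bioreactors that were set to a dilution rate of 0.025 per h. The medium of the industrial cultures carried additional iron sulfate and biotin. Point 1 of S3 and S4, and points 2 to 4 of the laboratory retentostats S1 and S2 (pH 5, 0.04% CO2), served only to show where the late phase differed.

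A retentostat is a continuous culture whose outflow is filtered, so that medium leaves and cells stay. The fixed glucose supply is thus divided among ever more cells, which brings division almost to a halt while the cells remain metabolically active. Yeast that slows down under glucose limitation is known to induce stress proteins, storage carbohydrates and high-affinity glucose uptake, and to repress ribosome synthesis. Point 2 already lay in the decelerating phase, so the comparison asks which transcripts still moved after growth had begun to slow.

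The 4 late libraries came from 2 cultures that were each sampled repeatedly, so they are not 4 independent cultures, and the 2 cultures are the only biological replicates. The RNA was extracted from whole broth. Dead cells are also held back by the filter, so fewer cells of a kind and less RNA per cell cannot be told apart. According to the study's methods, low-pH cultures showed off-gas oscillations that subsided as the retentostat phase went on. Among the a-specific mating-type markers, the pheromone genes *MFA1* and *MFA2* had 1995 to 3451 and 2149 to 2979 FPKM in the 6 libraries. *AGA2* had 162 to 233.5 FPKM and *STE2* 73.5 to 85.1 FPKM. *STE6* (20.9 to 23.7 FPKM) and *BAR1* (10.9 to 19.1 FPKM) were no higher than the alpha-specific markers. The alpha-specific genes were not at 0: *MF(ALPHA)1* had 31.7 to 72.6 FPKM and *STE3*, the a-factor receptor gene, 20.6 to 29.7 FPKM. *MF(ALPHA)2* had 20.9 to 34.5 FPKM and *SAG1* 35.9 to 42.0 FPKM.

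The 6 libraries held 13109387 to 15670406 reads on genes, a depth inferred from FPKM and gene length and not counted. The point 2 library of culture S3 stood apart. Its log2 values correlated at r = 0.967 to 0.978 with the other 5 libraries, whereas the 10 pairs among those 5 reached 0.988 to 0.998. Relative to its own point 2 library, 351 genes at point 3 and 289 at point 4 differed over 2-fold in S3, against 12 and 40 genes in S4. The median late change over all genes tested was 0.15 (log2) in S3 and −0.05 in S4. For this reason values below are given by culture, and the main gene lists are also counted against the S4 point 2 library alone.

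After correction over all genes, 1 transcript differed between the late phase and point 2. In limma, with culture as a block, 0 of 5150 genes (0%) were called higher and 1 (0.0194%) was called lower at an adjusted p under 0.05. At an unadjusted p under 0.05, 563 genes (10.9%) were higher and 378 (7.34%) were lower. A count-based fit on recomputed reads (limma-voom) called 0 genes higher and 1 lower, with 911 of 5049 genes (18%) at an unadjusted p under 0.05. The counts turned on the 2 point 2 libraries. Without the S4 point 2 library, which leaves that of S3 as the only early sample, 997 genes were called higher and 340 lower. Without the S3 point 2 library 0 and 0 were called, without S3 point 4 also 0 and 0, and without S4 point 4 there were 3 higher and 1 lower.

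The called transcript was *HPF1* (YOL155C, chrXV:28703-31606, minus strand), which encodes a heavily glycosylated mannoprotein of the cell wall, known as haze protective factor in wine. It had 41.4 FPKM at point 3 and 28.7 FPKM at point 4 in culture S3, against 155.7 FPKM at point 2. In culture S4 it had 40.3 and 28.5 FPKM at points 3 and 4, against 159.5 FPKM at point 2. Both cultures gave nearly the same values at each point, and the late and point 2 libraries did not overlap. At point 1 it had stood at 509.8 FPKM in S3 and 574.0 FPKM in S4, so its level was lower at each successive point. *HPF1* fell by 2.17 on the log2 scale in the late phase (SE 0.19, adjusted p = 0.0353, limma). The change was −2.14 in S3 and −2.20 in S4. Over 17 alternative settings it lay between −2.42 and −1.92. The adjusted p was 0.269 without the S3 point 2 library and 0.233 without the S3 point 4 library. Of the 100-base stretches of *HPF1*, 95.5% occur nowhere else in the R64 genome.

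**Figure D1:**
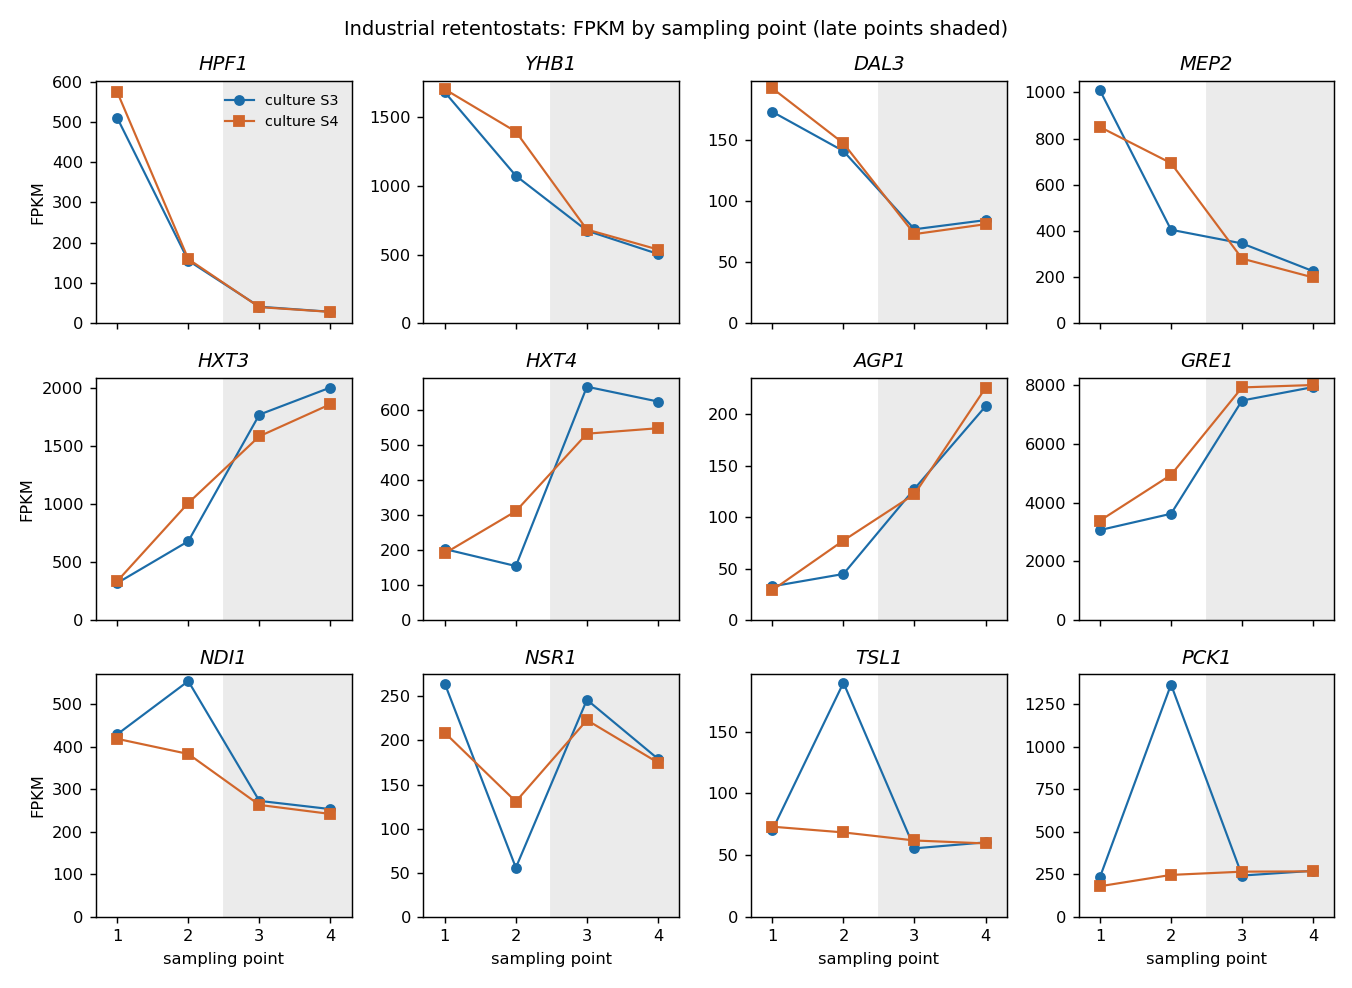
FPKM (vertical axes, from 0) of 12 genes by sampling point 1 to 4 (horizontal axes) in the industrial cultures S3 (blue circles) and S4 (orange squares), 1 library per point and culture, late points shaded. *HPF1*, *YHB1*, *DAL3* and *MEP2* lie lower and *HXT3*, *HXT4*, *AGP1* and *GRE1* higher at the late points than at point 2 in both cultures, whereas *PCK1* and *TSL1* stand out at point 2 in S3 alone (1365 and 189.5 FPKM).

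For a description of the remaining genes, the position of the 4 late libraries relative to both point 2 libraries was used. All 4 lay above both for 576 genes (11.2%) and below both for 725 genes (14.1%). After the medians of the 6 libraries were made equal, these counts were 815 (15.8%) and 763 (14.8%). Against the S4 point 2 library alone, 801 genes (15.6%) lay above and 1915 (37.2%) below. A group that also differed at least 1.5-fold in each culture held 34 genes (0.66%) that were higher and 19 (0.369%) that were lower in the late phase. This group was formed after the values were seen. Apart from *HPF1*, none of them passed the correction, and their values are given as a description.

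**Figure D2:**
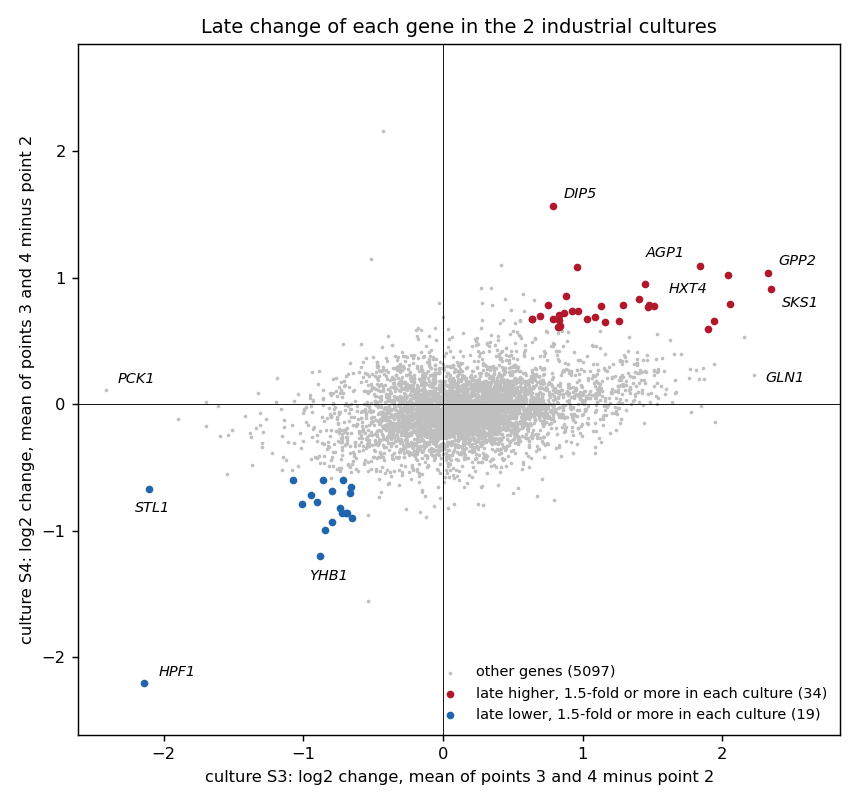
Late change (log2, mean of points 3 and 4 minus point 2) of each of the 5150 genes in culture S3 (horizontal axis) and culture S4 (vertical axis). Red points mark the 34 genes that were higher and blue points the 19 that were lower at least 1.5-fold in each culture, and grey points the others. The grey cloud is wider along the S3 axis, and *HPF1* lies alone at −2.14 and −2.20.

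Transcripts of the glucose transporters Hxt1, Hxt3, Hxt4 and Hxt7 lay higher in the late phase in both cultures. Yeast takes up glucose through a family of Hxt carriers. Hxt1 and Hxt3 have low affinity, Hxt2, Hxt6 and Hxt7 have high affinity, and Hxt4 is commonly placed between them. The repressor Rgt1, with the co-repressors Mth1 and Std1, keeps several *HXT* genes off when glucose is absent, under control of the sensors Snf3 and Rgt2. Of the 21 listed transporter and sensor genes 12 were tested. For 7 of these the late libraries all lay above point 2 and for 0 below, where 11.2% and 14.1% of all genes did so. After median scaling the counts were again 7 and 0 (15.8% and 14.8% of all genes). The median change of the 12 was 0.46, against 0.05 over all genes, and it was 0.62 in S3 and 0.475 in S4. Against S4 point 2 alone, 9 were higher and 1 was lower (15.6% and 37.2% of all genes).

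*HXT3* had 1770 and 2003 FPKM at points 3 and 4 of S3, against 679 FPKM at point 2. In S4 it had 1583 and 1859 FPKM, against 1009 FPKM at point 2. The groups did not overlap, and the log2 change was 1.12 (SE 0.18, adjusted p = 0.126, limma). *HXT4* had 666 and 624 FPKM late in S3, against 154 FPKM, and 532 and 547.5 FPKM late in S4, against 311 FPKM. Its change was 2.06 in S3 and 0.79 in S4, the larger of which rests on the S3 point 2 library (mean 1.43, SE 0.25, adjusted p = 0.132, limma). *HXT1* stayed low in all samples, with 15.5 and 16.9 FPKM late in S3, against 7.80 FPKM, and 13.1 and 17.4 FPKM late in S4, against 8.62 FPKM. Its point 1 values were 4.09 and 5.10 FPKM, below those of every later library.

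*HXT7* had 1266 and 1791 FPKM late in S3, against 1027 FPKM, and 1327 and 1976 FPKM late in S4, against 1024 FPKM. *HXT6* and *HXT7* are near-identical neighbours in which only 5.08% of 100-base stretches are unique, so how reads were split between them is uncertain. *HXT6* overlapped between the groups (1808 to 2253 FPKM late, 1716 and 1876 FPKM at point 2). *HXT2*, *HXT5*, *SNF3* and *RGT2* overlapped too. The 2 co-repressor genes lay higher in the late phase. *STD1* had 29.1 to 39.6 FPKM in the 4 late libraries, against 13.3 and 19.6 FPKM at point 2, and *MTH1* had 236 to 295.5 FPKM, against 139 and 178.5 FPKM. *SKS1*, which encodes a protein kinase that helps cells adapt to low glucose, had 137 to 159 FPKM late, against 27.2 FPKM in S3 and 83.4 FPKM in S4 at point 2. Hexokinase 2 (*HXK2*), listed with glycolysis, overlapped, with a late change of 0.98 in S3 and −0.04 in S4.

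The promoters of the transporter genes *HXT1*, *HXT3* and *HXT4* and of the co-repressor gene *STD1* are shown. They were picked because they carry the sequence CGGANNA, the core to which Rgt1 is known to bind. Within 500 bases before the start codon, *HXT3* has 5 matches on either strand, *HXT1* has 4, and *HXT4*, *STD1* and *SKS1* have 2 each, with overlapping matches counted. *MTH1* and *HXT7*, which were also higher, have 0. Among genes that overlapped between the groups *HXT2* has 2 and *HXT5* and *HXT6* have 1 each. Of 5896 promoters of the same length 42.5% hold at least 1 match, 11.7% at least 2 and 0.56% at least 4. In the stretches below, from the R64 genome (RefSeq) and read 5′ to 3′ on the gene's strand, capitals mark CGGANNA or its reverse complement TNNTCCG. They lie at chrVIII:293008-293119 (*HXT1*), chrIV:1164963-1165112 (*HXT3*), chrVIII:289091-289246 (*HXT4*) and chrXV:417895-417960 (*STD1*), all on the minus strand, and hold 3 of the 4 matches of *HXT1* and all matches of the others. A match is a description of the letters and not a measured binding site.
HXT1: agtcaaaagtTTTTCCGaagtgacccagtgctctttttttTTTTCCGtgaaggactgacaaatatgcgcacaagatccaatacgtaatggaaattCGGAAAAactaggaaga
HXT3: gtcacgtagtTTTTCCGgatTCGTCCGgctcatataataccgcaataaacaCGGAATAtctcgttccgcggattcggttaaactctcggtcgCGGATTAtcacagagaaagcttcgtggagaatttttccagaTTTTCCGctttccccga
HXT4: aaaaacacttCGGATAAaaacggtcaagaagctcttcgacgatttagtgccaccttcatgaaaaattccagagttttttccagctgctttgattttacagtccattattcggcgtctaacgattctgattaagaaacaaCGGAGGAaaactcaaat
STD1: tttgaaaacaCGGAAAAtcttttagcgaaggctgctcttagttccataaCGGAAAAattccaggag

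Transcripts of 6 amino acid permeases lay higher in the late phase, whereas those of the ammonium permease *MEP2* and the allantoin gene *DAL3* lay lower. Many permease genes are known targets of the Ssy1-Ptr3-Ssy5 sensor of extracellular amino acids, and genes for poor nitrogen sources are under the GATA factors Gln3, Gat1 and Dal80. Of 17 permeases tested, 6 had all late libraries above point 2 (*AGP1*, *BAP2*, *DIP5*, *GNP1*, *MUP1* and *TAT2*) and 2 had all below, the proline permease gene *PUT4* and the GABA permease gene *UGA4*. Over all genes these shares were 11.2% above and 14.1% below. After median scaling the counts were 5 and 4 (15.8% and 14.8% of all genes). Against S4 point 2 alone 6 lay above and 8 below, where 15.6% and 37.2% of all genes did so. The median change of the 17 was 0.24, but 0.50 in S3 and −0.11 in S4.

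*AGP1*, a broad-range amino acid permease, had 127.5 and 208 FPKM at points 3 and 4 of S3, against 44.8 FPKM at point 2. In S4 it had 122 and 226 FPKM, against 77.3 FPKM. It was higher at point 4 than at point 3 in both cultures (change over point 2 1.47, SE 0.31, adjusted p = 0.148, limma). *DIP5*, which carries glutamate and aspartate, had 18.2 and 38.7 FPKM late in S3, against 15.0 FPKM, and 23.0 and 47.9 FPKM late in S4, against 10.6 FPKM. At point 1 it had been at 1.54 and 1.73 FPKM. *BAP2*, a branched-chain amino acid permease, had 440 to 483 FPKM late, against 263 and 317 FPKM. Another 8 permeases fell below the filter. Among them *BAP3* had 1.13 and 5.17 FPKM late in S3, against 0.235 FPKM, and 0.997 and 7.65 FPKM late in S4, against 0.921 FPKM, so its high values were at point 4.

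The ammonium permease gene *MEP2* had 346 and 226 FPKM at points 3 and 4 of S3, against 405 FPKM at point 2, and 280.5 and 199 FPKM in S4, against 694 FPKM. The change was −0.53 in S3 and −1.55 in S4 (mean −1.04, SE 0.28, adjusted p = 0.184, limma). At point 1 it had been at 1009 and 850.3 FPKM. *DAL3*, which encodes ureidoglycolate lyase of allantoin breakdown, had 77.1 and 84.5 FPKM late in S3, against 141 FPKM, and 73.1 and 81.2 FPKM late in S4, against 147 FPKM. The 4 late values lay close together and below both point 2 values (change −0.86, SE 0.11, adjusted p = 0.126, limma). *DUR12* (urea amidolyase) had 17.0 to 18.9 FPKM late, against 23.6 and 27.0 FPKM. Among the 15 tested genes of ammonium transport and assimilation, 2 were higher in every late library (*ATO2* and *GLN1*) and 4 lower (*MEP2*, *GLT1*, *DAL80* and *NPR1*). Over all genes 11.2% were higher and 14.1% lower in this way. Against S4 point 2 alone the counts were 2 and 9 (15.6% and 37.2% of all genes). Glutamine synthetase (*GLN1*) had 1966 to 2643 FPKM late, against 525 FPKM in S3 and 1826 FPKM in S4, so its mean change of 1.23 came mainly from the S3 point 2 library (2.23 in S3, 0.23 in S4). The general amino acid permease gene *GAP1* moved differently in the 2 cultures (0.04 in S3, −0.82 in S4).

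The *MEP2* and *DAL3* promoters are shown because they hold clusters of GATAAG, the core bound by GATA factors. *MEP2* has 7 matches on either strand in the 500 bases before its start and *DAL3* has 5, where 22.9% of the 5896 promoters have at least 1 and 0.204% at least 4. *GAP1* has 4 and *DUR12* has 3. At least 2 matches are held by 3.66% of the promoters and at least 3 by 0.56%. Among genes that were higher late *AGP1* has 2, *HXT4* and *SKS1* have 1 each, and *HXT1* and *HXT3* have 0. *HPF1*, which was lower, has 1. Capitals mark GATAAG or its reverse complement CTTATC, overlapping matches included, in R64 sequence at chrIX:415639-415794 (*DAL3*, minus strand) and chrXIV:356978-357145 (*MEP2*, plus strand, with 6 of its 7 matches).
DAL3: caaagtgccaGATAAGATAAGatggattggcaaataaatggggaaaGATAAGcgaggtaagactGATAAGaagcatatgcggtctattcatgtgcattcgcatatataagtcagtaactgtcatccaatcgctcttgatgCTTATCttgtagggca
MEP2: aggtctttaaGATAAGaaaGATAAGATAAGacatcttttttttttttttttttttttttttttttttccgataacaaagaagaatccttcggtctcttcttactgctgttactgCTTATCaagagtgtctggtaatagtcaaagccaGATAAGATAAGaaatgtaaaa

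4 genes of aromatic amino acid metabolism were looked at after their values were seen. *ARO10*, the decarboxylase of the Ehrlich pathway that turns amino acid carbon skeletons into fusel aldehydes, had 102 to 149.9 FPKM late, against 61.5 and 89.8 FPKM. *ARO8*, an aromatic aminotransferase, had 46.0 and 32.1 FPKM at points 3 and 4 of S3 and 37.5 and 28.8 FPKM in S4, against 62.9 and 60.5 FPKM. *ARO3*, the first enzyme of aromatic amino acid synthesis, had 12.8 to 25.0 FPKM late, against 31.5 and 31.9 FPKM. *ARO9*, the other aromatic aminotransferase, overlapped, with 115 to 152 FPKM late, against 149 and 145 FPKM. For 12 of the 48 amino acid synthesis genes tested all late libraries lay below point 2, and for 3 above (14.1% and 11.2% of all genes). After scaling the counts were 14 and 4, and against S4 point 2 alone 21 and 4, where 37.2% and 15.6% of all genes lay. The list median was 0.10 in S3 and −0.25 in S4.

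Several plasma membrane exporters of organic acids and related compounds lay higher late. *AQR1*, a transporter linked to weak acid tolerance and amino acid release, had 13.4 and 20.0 FPKM late in S3, against 3.23 FPKM, and 16.5 and 25.7 FPKM late in S4, against 9.65 FPKM. *PDR12*, the ABC transporter for weak organic acids, had 487 and 490 FPKM late in S3, against 275.5 FPKM, and 461 and 530.1 FPKM late in S4, against 323 FPKM. *TPO2*, a polyamine exporter, had 27.5 to 32.3 FPKM late, against 12.8 and 18.7 FPKM. In none of these did the groups overlap, and the log2 changes were 1.53, 0.72 and 0.90 (adjusted p = 0.138, 0.126 and 0.132, limma). *HSP30*, which restrains the plasma membrane proton pump, had 4203 to 4864 FPKM late, against 2865 and 3013 FPKM. Of the 20 tested genes of weak acid and drug efflux, 6 were higher in all late libraries and 2 lower (*SNQ2* and *TPO4*), where 11.2% and 14.1% of all genes were. Against S4 point 2 alone the counts were 6 and 5 (15.6% and 37.2% of all genes). The list median was 0.19 in S3 and 0.04 in S4, close to that of all genes in S3.

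4 further genes were picked after their values were seen. *GPP2*, a glycerol-3-phosphatase, had 100.9 and 94.5 FPKM late in S3, against 18.7 FPKM, and 102 and 85.3 FPKM late in S4, against 44.9 FPKM. *DAK2*, a dihydroxyacetone kinase, had 14.9 and 16.9 FPKM late in S3, against 3.40 FPKM, and 9.86 and 15.3 FPKM late in S4, against 7.41 FPKM. *STL1*, the glycerol importer, was lower, with 36.3 to 43.7 FPKM late, against 166 FPKM in S3 and 65.9 FPKM in S4. *GRE1*, a stress-induced hydrophilin, had 7471 and 7929 FPKM late in S3, against 3618 FPKM, and 7917 and 8000 FPKM late in S4, against 4940 FPKM. Its 4 late libraries lay close together and above point 2 (change 0.89, SE 0.13, adjusted p = 0.126, limma).

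Of the 21 wall mannoprotein genes tested, 3 had all late libraries above point 2 (*CWP1*, *PIR3* and *CCW14*) and 2 below (*HPF1* and *TIR2*). Over all genes these shares were 11.2% above and 14.1% below, so the list was near them. After scaling 1 was above and 3 were below (15.8% and 14.8% of all genes). Against S4 point 2 alone 4 were above and 3 below (15.6% and 37.2% of all genes). The list median was 0.22 in S3 and 0.01 in S4. *CWP1*, which is linked to wall glucan, had 120.5 and 168 FPKM late in S3, against 87.5 FPKM, and 113 and 174 FPKM late in S4, against 86.2 FPKM. Its change was 0.70 in both cultures. *TIR2* had 12.4 to 20.2 FPKM late, against 27.8 and 22.6 FPKM. *SUR7*, a protein of the eisosome domains under the plasma membrane, had 37.6 to 59.8 FPKM late, against 90.4 and 75.5 FPKM. *NCA3*, a member of the SUN family, had 475 to 766.5 FPKM late, against 198 FPKM in S3 and 358 FPKM in S4. The glucanase gene *EXG1* (692 to 941 FPKM late) overlapped with point 2, where it had 341 FPKM in S3 and 696 FPKM in S4.

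Genes of respiration were lower in the late phase in both cultures. The mitochondrial respiratory chain passes electrons from NADH and succinate to oxygen and drives ATP synthase, and at glucose limitation it yields most of the cell's ATP. Of the 34 respiratory chain and ATP synthase genes tested, all late libraries lay below point 2 for 23, where 14.1% of all genes did so, and above for 0. After scaling 18 were below (14.8% of all genes), and against S4 point 2 alone 23 were below and 3 above (37.2% and 15.6% of all genes). The median was −0.405 over the list, −0.54 in S3 and −0.25 in S4, against medians of 0.15 and −0.05 over all genes. Among the 20 genes of the tricarboxylic acid cycle 13 were below and 0 above, with a median of −0.37 (−0.54 in S3, −0.21 in S4). After scaling 11 were below, and against S4 point 2 alone 14 were below and 1 above. No member of either list passed the correction. *QCR8* is listed at 0 in all 6 libraries.

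*NDI1*, the internal NADH dehydrogenase that stands in for complex I in yeast, had 272 and 253 FPKM late in S3, against 554 FPKM, and 263 and 242 FPKM late in S4, against 383 FPKM. The change was −1.07 in S3 and −0.60 in S4 (SE of the mean change 0.13, adjusted p = 0.126, limma). *SDH3*, a membrane subunit of succinate dehydrogenase, had 1529 to 1728 FPKM late, against 2995 FPKM in S3 and 2068 FPKM in S4. *YHB1*, a flavohaemoglobin that removes nitric oxide, had 674 and 505 FPKM late in S3, against 1074 FPKM, and 683 and 537 FPKM late in S4, against 1395 FPKM. Its point 1 values were 1682 and 1703 FPKM, so it was lower at each successive point in both cultures. *ZNF1*, a zinc cluster factor of respiratory metabolism, had 9.78 to 11.9 FPKM late, against 21.4 and 20.7 FPKM. *ROX1*, the repressor of hypoxic genes, had 144 to 209 FPKM late, against 69.4 FPKM in S3 and 138 FPKM in S4.

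**Figure D3:**
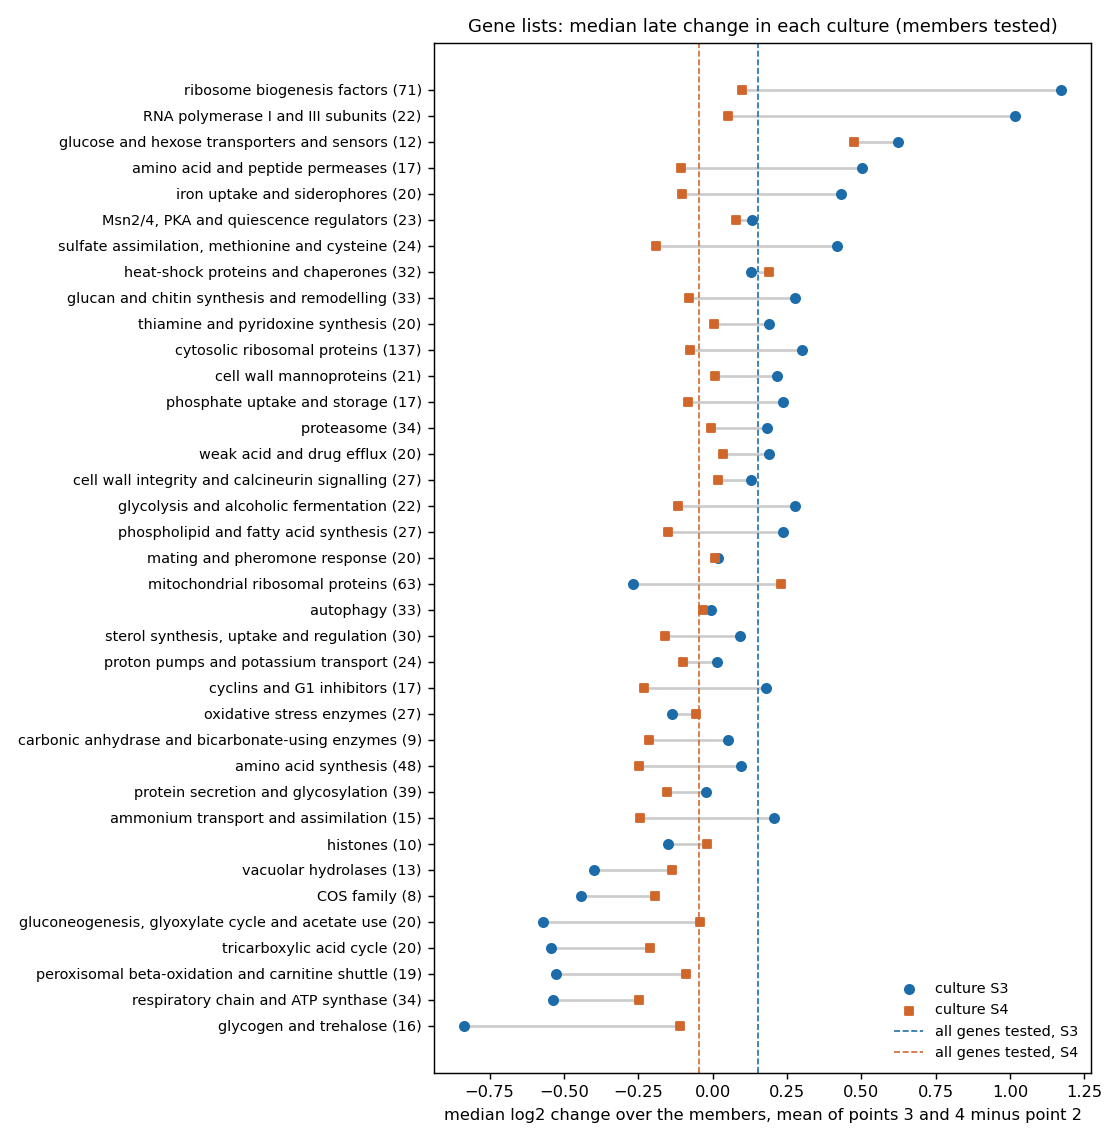
Median late change (log2, mean of points 3 and 4 minus point 2) over the tested members of each gene list with at least 8 of them, in culture S3 (blue circles) and culture S4 (orange squares), with the number of members tested in brackets. Dashed lines give the medians over all 5150 genes, 0.15 in S3 and −0.05 in S4. Ribosome biogenesis (1.17 in S3, 0.10 in S4) and glycogen and trehalose (−0.835 in S3, −0.11 in S4) are far apart between the cultures, whereas hexose transport and respiration lie on the same side in both.

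Storage carbohydrate, gluconeogenic and peroxisomal lists had medians well below that of all genes in culture S3 and close to it in S4. Glycogen and trehalose are reserve carbohydrates that slow-growing yeast accumulates. Of 16 genes tested 10 had all late libraries below point 2 and 0 above (14.1% and 11.2% of all genes). After scaling these were 8 and 0 (14.8% and 15.8% of all genes), and against S4 point 2 alone 10 and 1 (37.2% and 15.6%). The median was −0.835 in S3 and −0.11 in S4. *TSL1*, a subunit of trehalose synthase, had 55.4 and 60.3 FPKM late in S3, against 189.5 FPKM, and 61.8 and 59.4 FPKM late in S4, against 68.3 FPKM. *PCK1*, the first step of gluconeogenesis, had 242 and 270.3 FPKM late in S3, against 1365 FPKM, and 265 and 267 FPKM late in S4, against 246 FPKM. Without the S3 point 2 library the *PCK1* change was 0.11 in place of −1.15. The gluconeogenesis, glyoxylate and acetate list had a median of −0.57 in S3 and −0.04 in S4, close to that of all genes in S4 (−0.05). All late libraries lay below point 2 for 6 of its 20 genes and above for 1, *CIT2*, and against S4 point 2 alone 6 lay below and 6 above. Of 19 peroxisomal genes 8 were below and 0 above, against S4 point 2 alone 9 and 1 (medians −0.53 in S3, −0.09 in S4). The acyl-CoA synthetase gene *FAA2* was the furthest of these, with 59.3 to 66.4 FPKM late, against 130.3 and 90.7 FPKM.

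Ribosome synthesis showed the reverse pattern, again mostly in culture S3. Of 71 biogenesis factors tested 34 had all late libraries above point 2 and 0 below, where 11.2% and 14.1% of all genes did so. After scaling these were 56 and 0 (15.8% and 14.8% of all genes), and against S4 point 2 alone 34 and 1 (15.6% and 37.2%). The median was 1.17 in S3 and 0.10 in S4. From point 1 to point 2 the same list had a median change of −1.27 in S3 and −0.25 in S4. *NSR1*, a nucleolar protein of pre-rRNA processing, had 246 and 179 FPKM late in S3, against 55.7 FPKM, and 223 and 175 FPKM late in S4, against 131 FPKM. It was thus higher late in both cultures, by 1.89 and 0.59 (SE of the mean change 0.29, adjusted p = 0.166, limma). RNA polymerase I and III subunits had medians of 1.02 in S3 and 0.05 in S4, with 7 of 22 above and 1 below, also against S4 point 2 alone. *RPC37*, a polymerase III subunit, had 51.0 to 76.9 FPKM late and 19.9 and 59.1 FPKM at point 2, which overlapped. Cytosolic ribosomal protein genes depended on the scaling, since 5 of 137 were above and 11 below as deposited, but 29 and 7 after median scaling, and 5 and 36 against S4 point 2 alone. *RPL22B* had 260 to 336 FPKM late, against 121 FPKM in S3 and 255 FPKM in S4. Mitochondrial ribosomal proteins differed between the cultures, with medians of −0.27 in S3 and 0.23 in S4. Of 63 tested 2 were above and 0 below point 2 in all late libraries, and against S4 point 2 alone 35 and 0.

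Of 32 chaperone genes tested, 14 had all late libraries above point 2 and 0 below (11.2% and 14.1% of all genes). After median scaling 8 were above (15.8% of all genes). Against S4 point 2 alone 21 were above and 1 below (15.6% and 37.2% of all genes). The median was 0.135, with 0.13 in S3, near that of all genes there, and 0.19 in S4. *HSP26*, a small heat-shock protein that holds unfolded proteins, had 23608 to 25027 FPKM late, against 18611 and 16628 FPKM. *HSP12*, a membrane-stabilising stress protein, overlapped, with 32522 to 36760.1 FPKM late, and 35501 FPKM in S3 and 23923 FPKM in S4 at point 2. Of 13 vacuolar hydrolase genes 10 were below point 2 in all late libraries and 0 above (7 after scaling, and 10 and 1 against S4 point 2 alone), with medians of −0.40 in S3 and −0.135 in S4. The peptidase gene *LAP3* had 36.1 to 43.9 FPKM late, against 77.8 and 60.7 FPKM. The subtelomeric *COS* genes had 5 of 8 below and 0 above (3 after scaling, 6 against S4 point 2 alone), *COS9* with 24.6 to 25.4 FPKM late, against 42.5 and 36.2 FPKM. Reads of this family may be shared among copies, though 100% of the 100-base stretches of *COS9* occur nowhere else in the R64 genome.

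Among the other lists the member with the largest change was also read. The G1 cyclin gene *CLN1* had 22.4 to 26.9 FPKM late, against 35.2 and 37.4 FPKM. Of 17 cyclin and inhibitor genes 5 were below and 0 above (14.1% and 11.2% of all genes). After scaling 4 were below and 1 above (14.8% and 15.8%), and against S4 point 2 alone 11 and 0 (37.2% and 15.6%). *INO1*, which makes inositol phosphate, had 53.3 to 69.4 FPKM late, against 104.9 and 111 FPKM. The phosphate transporter gene *PHO84* had 10.1 to 14.6 FPKM late, against 6.72 and 6.83 FPKM. *PDE2*, a cyclic AMP phosphodiesterase, had 58.7 to 77.3 FPKM late, against 24.1 and 53.5 FPKM. The thiazole synthase gene *THI4* had 165 to 198 FPKM late, against 114 and 133 FPKM, and the proteasome lid gene *SEM1* 1678 to 1987 FPKM, against 1242 and 1664 FPKM. *ATG39*, a receptor of nuclear autophagy, had 202 to 232 FPKM late, against 405 and 262 FPKM. *HHT1*, a histone gene, had 1089 to 1451 FPKM late, against 1881 and 1584 FPKM. None of these overlapped, and none passed the correction. *ERO1*, *PAU19*, *PRM5*, *RSM22* and *STE3* were likewise higher and *PRM4* was lower without overlap. After median scaling 0 of the 6 tested *PAU* genes were higher without overlap, so *PAU19* overlapped then. *ENB1*, *MET2*, *VMA10*, *BIO3*, *CTA1*, *BAR1* and *IME1* overlapped.

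The late points were also fitted apart. In this fit 0 genes (0%) were higher and 1 (0.0194%) was lower at point 3 than at point 2, with 362 (7.03%) and 284 (5.51%) at an unadjusted p under 0.05 in limma. Point 4 against point 2 gave 0 (0%) and 1 (0.0194%), with 353 (6.85%) and 326 (6.33%) unadjusted. Point 4 against point 3 gave 0 and 0 calls (0%), with 91 (1.77%) and 107 (2.08%) unadjusted. The called gene was *HPF1* in both contrasts against point 2. This fit has few residual degrees of freedom, and the missing calls do not show that points 3 and 4 were alike.

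The late change was then compared with that over the same point numbers of the laboratory retentostats. The cultures differed in feed and in growth rate at the same point number, and the study's methods and the labels differ on where the laboratory libraries were sequenced, so changes within a culture were compared and levels were not. In a limma fit on 12 libraries, with each of the 4 cultures as a block, the industrial late change was above the laboratory one for 366 of 5052 genes (7.24%) and below it for 660 (13.1%). After median scaling these were 541 and 553. Without culture S3 they were 23 (0.455%) and 29 (0.574%), and all 52 of these were also called, in the same direction, with all 4 cultures. In the same fit the industrial change was called for 13 genes up (0.257%) and 13 down (0.257%), and the laboratory change for 1280 up (25.3%) and 588 down (11.6%).

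*HPF1* differed by −2.16 (SE 0.24, adjusted p = 0.00239, limma). Its laboratory values were 139 and 121 FPKM at points 3 and 4 of S1, against 141 FPKM at point 2, and 178 and 166 FPKM in S2, against 161.5 FPKM. In laboratory culture S1 the values were thus also lower than at point 2, by far less than in the industrial cultures, and in S2 they were not. The difference was also called without S3 (adjusted p = 0.0373, limma). *DAL3* differed by −2.25 (SE 0.22, adjusted p = 0.00173, limma). It was lower late in the industrial cultures, whereas in the laboratory it had 42.5 and 29.3 FPKM late in S1, against 11.2 FPKM, and 52.0 and 58.4 FPKM late in S2, against 23.5 FPKM. Of the genes described above, *MEP2* (−1.53), *DUR12* (−1.09), *TIR2* (−1.81), *ZNF1* (−1.59) and *STL1* (−1.86) also differed downwards, with and without S3, and were picked after their values were seen, as was the next. The ammonium exporter candidate gene *ATO2* differed upwards (2.13, also without S3), being higher late in the industrial cultures (1489 to 2066 FPKM, against 1160 and 1115 FPKM) and lower late in the laboratory ones (494 to 578 FPKM, against 1351 and 1618 FPKM).

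The largest positive differences were those of *RTS3* (2.58), a candidate phosphatase 2A component, *SED1* (2.52), a major stress-induced wall protein, and *DAT1* (2.27), which binds oligo(A) tracts. These came largely from the laboratory side. *SED1* had 5523 to 7859 FPKM late in the industrial cultures, against 5543 and 5738 FPKM, but 2512 and 2539 FPKM late in S1, against 20592 FPKM, and 2735 and 2847 FPKM late in S2, against 8036 FPKM. The largest negative ones, beside *DAL3*, were *PCK1* (−2.65) and *RRT8* (−2.29), a lipid droplet protein gene. *PCK1* differed by −1.39 without S3, *RRT8* by −1.81. *RTS3*, *PCK1* and *RRT8* were also called without S3, but *PCK1* was not without the laboratory culture S1 (adjusted p = 0.0703, limma). *SED1* and *DAT1* were not called without S3 (adjusted p = 0.0648 and 0.0816, limma).

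Over all genes 7.24% differed upwards and 13.1% downwards, or 0.455% and 0.574% without S3. By list, 15 of 34 respiratory genes differed downwards and 0 upwards, which became 0 and 0 without S3. The list median was −0.405 in the industrial and 0.45 in the laboratory cultures, against 0.05 and 0.12 over all genes. Of the 32 chaperones 15 differed upwards and 0 downwards, and 4 without S3, among them *SIS1* and *HSP42*. The median of the 32 was 0.135 in the industrial and −0.49 in the laboratory cultures, so the laboratory side moved further. Of the 137 cytosolic ribosomal proteins 39 differed downwards and 2 upwards, with median changes of 0.11 in the industrial and 0.61 in the laboratory cultures, and 1 downwards without S3. Of the 6 *COS* genes tested 5 differed downwards, and 0 without S3, with medians of −0.36 in the industrial and 0.79 in the laboratory cultures.

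**Figure D4:**
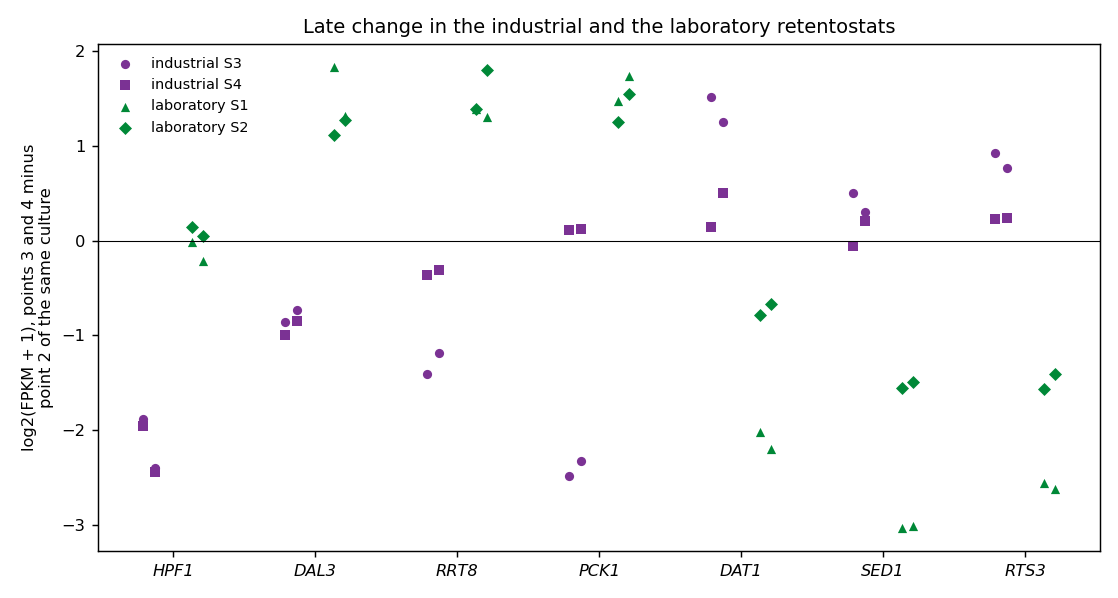
Change from point 2 of the same culture (log2 of FPKM + 1, vertical axis) at points 3 and 4 for *HPF1* and the 6 genes with the largest differences, in the industrial cultures S3 (purple circles) and S4 (purple squares), left, and the laboratory cultures S1 (green triangles) and S2 (green diamonds), right; in each pair point 3 is the left symbol. *HPF1* lies far below 0 in the industrial cultures and near 0 in the laboratory cultures, and for *PCK1* the S3 symbols lie far below those of S4.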

How the data were processed

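The deposited values were FPKM per gene and library, made by the authors from reads that were aligned in a 2-pass scheme with STAR 2.5.3a to the S288C genome (R64), counted with HTSeq after ambiguous reads were dropped, and normalised with edgeR. Reads recomputed from FPKM and gene length were whole, within 0.05, for 99.69 to 99.89% of low values per library. Here log2(FPKM + 1) of the deposited values, unscaled, was tested with limma 3.58.1 (R 4.3.3) with a mean-variance trend, culture (S3 or S4) as a block, since the same vessel was sampled at each point, and Benjamini-Hochberg adjustment over the 5150 genes that averaged 10 FPKM or more. Tests were two-sided and called at an adjusted p of 0.05. A value is late minus point 2, the late value being the mean of points 3 and 4. Named genes were those called, per list the 2 called members with the largest change or else the 1 with the largest change, and the 3 largest called differences from the laboratory cultures in each direction. All other genes were picked after their values were seen. The 42 gene lists and the members were chosen with earlier results of these data known. Of the 6600 gene names 5917 matched R64, and those not matched were kept under their systematic names. No library was identical to another (28 pairs). The 10 chemostat libraries were not used here. The kit named in the labels does not mark strand while the study's methods name a stranded library, so overlapping genes are uncertain. With 2 cultures, p-values rest on the spread between few samples.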

Additional observations from a re-analysis of the deposited data

Results flagged for a closer look

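The late change differed between the industrial and the laboratory retentostats, by the interaction term of a limma fit on 12 libraries, for 19 of the genes named by the rule. The industrial change lay below the laboratory change for *PCK1* (−2.65, log2 industrial minus laboratory), *RRT8* (−2.29), *DAL3* (−2.25), *HPF1* (−2.16), *ENB1* (−1.91), *HHT1* (−1.49), *INO1* (−1.47), *COS9* (−1.36), *SDH3* (−1.23) and *DUR12* (−1.09). It lay above it for *RTS3* (2.58), *SED1* (2.52), *DAT1* (2.27), *ROX1* (1.95), *AQR1* (1.37), *EXG1* (1.29), *NSR1* (1.21), *THI4* (0.99) and *RSM22* (0.66). Without culture S3, whose point 2 library stood apart, *HPF1*, *DAL3*, *RRT8*, *PCK1*, *RTS3* and *DUR12* were still called. The 2 conditions differ in pH, CO2, added iron sulfate and biotin, feed and growth rate, and the parts of these cannot be told apart. Whether the sequencing site also differed is unclear, since the study's methods and the labels do not match on it. Among 47 groups of 4 late libraries, 1 per named gene, 0 held a sample separated from the others by more than Dixon's limit. The point 2 libraries, that of S3 included, were not part of this check.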

How the results depend on the processing

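The count of genes called lower late was 1 and of those called higher 0 under a pseudocount of 0.1, a minimum of 50 FPKM, median scaling, quantile normalisation, 8 libraries, no variance trend and voom. Without the replicate block they were also 1 and 0 (*HPF1* adjusted p = 0.00904, limma), and the pairing by culture changed no other call. Without a filter 0 were lower (*HPF1* adjusted p = 0.0691), and a fold above 2 with an adjusted p under 0.005 left 0. Point 3 alone gave 51 higher and 14 lower, point 4 alone 85 and 47, each with 1 residual degree of freedom. Leaving out 1 library at a time gave 0 to 997 higher (3 without S4 point 4) and 0 to 340 lower, the highest of each without S4 point 2. Without S3 point 2 4 uncalled changes turned sign, so that leaving out 1 library gave −0.57 to 0.0018 for *BAR1*, −0.042 to 0.98 for *HXK2*, −0.115 to 1.28 for *MET2* and −2.41 to 0.11 for *PCK1*. Against the laboratory, 366 higher and 660 lower became 541 and 553 after median scaling, and 27 and 23 at an adjusted p of 0.005. Leaving out 1 culture gave 23 to 705 higher (164 without S1, 627 without S2, 23 without S3, 705 without S4) and 29 to 859 lower (373 without S1, 29 without S3). Counts by sampling point were the same under median scaling and without the block. Of the other values of single late changes, 639 kept their direction and side of the limit, 56 passed it and 3, all of *HPF1*, lost it. The causes were not tested. Genes averaging under 10 FPKM were not tested, and with 2 point 2 libraries, 1 of them apart from the rest, the spread at point 2 is poorly known.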

Other observations

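The metallothionein gene *CUP1-1* was the gene furthest above 0 in culture S4 (2.16) while at −0.43 in culture S3. It is 1 of the identical tandem copies of *CUP1*, so its reads cannot be assigned to a copy. Among further genes with all late libraries above point 2, the riboflavin transporter gene *MCH5* had 50.6 to 64.5 FPKM late, against 21.8 FPKM in S3 and 35.8 FPKM in S4. *VID24*, which targets gluconeogenic enzymes for breakdown, had 177 to 213 FPKM late, against 66.1 and 114 FPKM, and *TRZ1*, which trims tRNA ends, had 25.9 to 45.6 FPKM, against 19.1 and 21.3 FPKM. Among genes with all late libraries below point 2, *TOS4* had 11.8 to 13.7 FPKM late, against 26.4 and 24.2 FPKM, and *EUG1*, a protein disulfide isomerase of the endoplasmic reticulum, had 11.7 to 15.2 FPKM, against 23.3 and 25.0 FPKM. None passed the correction, and all were picked after their values were seen.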
